A study of Mus musculus with 27 samples.

Results

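Embryos injected with the siRNA mixture named siComb were compared with embryos injected with the control siRNA, siControl, over all 55367 gene rows and 2 further rows for the retrovirus MERVL. The groups were read from the sample titles, and the 6 libraries of siComb and siControl are 6 of the 27 in the series. The series as a whole studies miR-203 and chromatin in early mouse embryos, with 9 groups of 3 libraries. Per the labels, wildtype zygotes received siRNA in the cytoplasm at E0.5 and grew in KSOM medium to E2.75, the morula stage, and each library pooled 15 to 20 of them. By the labels, the siComb and siControl groups shared genotype, injection, culture and day of harvest and differed in the siRNA. Which siRNAs the siComb mixture held is not given in the labels. Embryos injected in the same way with siP300, siKat6a or siKat6b, 3 libraries each, entered the same fit and serve below to show where siComb differed from an injection with a single named target. Since no label says whether the pools of a group were made on separate occasions, p-values measure the spread between these libraries, which may be technical.

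Lysine acetyltransferases add acetyl groups to histones and other proteins, and the marks they leave on histones accompany active promoters and enhancers. Ep300 (p300) and its close relative Crebbp (CBP) acetylate histone H3 at enhancers and promoters, while Kat6a and Kat6b (MOZ and MORF) belong to the MYST family and work in complexes with Brpf and Ing proteins. The mouse morula has by then passed from maternal RNA to its own transcription, becomes compact and polarised, and prepares the first lineage choice between trophectoderm, the future placenta, and inner cell mass, the source of the embryo proper.

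Library totals ran from 9496340 to 9889636 counts in siComb and from 10115478 to 11164806 counts in siControl. Levels below are CPM values, the counts of a gene relative to the library total, after TMM scaling, a scaling on the bulk of genes, except where a share of all counts is named. Changes are log2 fold changes of siComb over siControl ± SE, and adjusted p-values are those of edgeR's quasi-likelihood test with Benjamini-Hochberg adjustment over all 19182 genes tested. "Rose" and "fell" are used of genes with an adjusted p under 0.05, and n = 3 libraries in each group throughout. Mitochondrially encoded genes took 5.41, 5.16 and 4.86% of counts in siComb 1, 2 and 3 and 1.94, 2.405 and 2.45% in siControl 1, 2 and 3. Cytosolic ribosomal protein genes went the other way, with 6.34 ± 0.583% (SD) in siComb and 11.8 ± 0.4% in siControl. After each library was thinned to 9496340 counts, 16911 ± 413 genes (SD) had at least 10 counts in siComb and 15228 ± 49.4 in siControl. The 2 groups did not overlap in any of these 3 measures (two-sided exact permutation p = 0.1 for each, the smallest that 3 libraries against 3 allow). RNA was measured in bulk, so that fewer cells of a kind and less RNA per cell cannot be told apart.

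**Figure D1:**
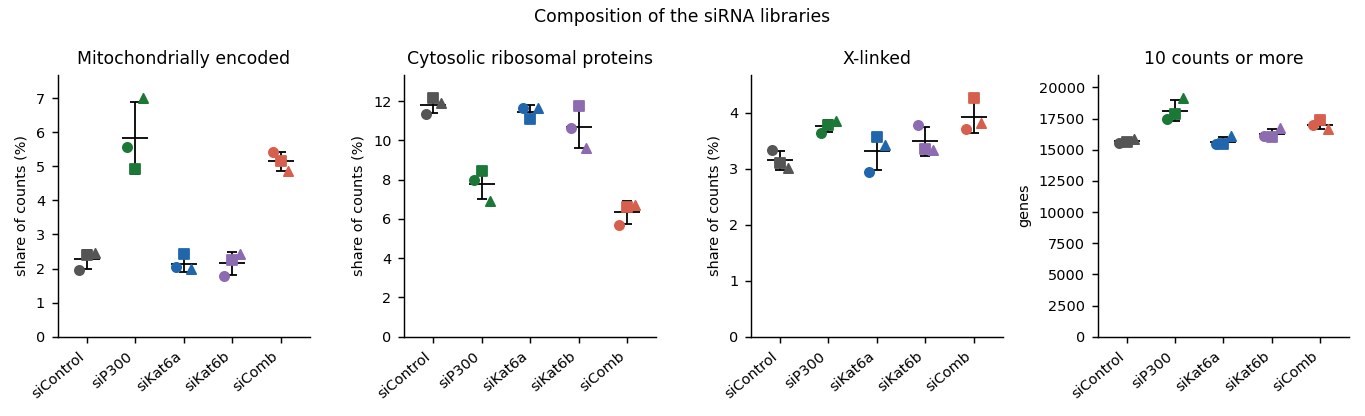
Share of all counts in mitochondrially encoded, cytosolic ribosomal protein and X-linked genes (%), and number of genes with at least 10 counts before thinning, per library in the 5 siRNA groups; circles, squares and triangles are replicates 1, 2 and 3, with the mean and SD in black. The 3 siComb libraries, at 5.41, 5.16 and 4.86%, lie above every siControl library for the mitochondrial share and below every one for the ribosomal protein share.

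Transcripts of the acetyltransferases themselves were examined first, since an siRNA acts by lowering its target RNA. Kat6a, on chr8:22859535-22943259 of GRCm38, measured 12.4, 9.93 and 11.9 CPM in siComb 1, 2 and 3 and 19.16, 16.7 and 17.4 CPM in siControl 1, 2 and 3. Kat6b, on chr14:21481434-21672478, measured 53.9, 32.6 and 82.6 CPM in siComb 1, 2 and 3 and 106, 118 and 121 CPM in siControl 1, 2 and 3. Every siComb library lay below every siControl library for both MYST genes, and both fell: Kat6a fell by 0.64 ± 0.20 (adjusted p = 0.0219) and Kat6b fell by 1.03 ± 0.28 (adjusted p = 0.00819). The siKat6a group held 12.9 ± 1.57 CPM (SD) of Kat6a and the siKat6b group 78.1 ± 6.79 CPM of Kat6b, so that each MYST target stood at or below its level in the matching single injection on average. Without siComb 2 or without siControl 1, Kat6a no longer passed, with adjusted p = 0.0855 and 0.0813, and its adjusted p was 0.195 with scaling by library size alone and 0.189 with no filter on low counts.

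Ep300, on chr15:81585351-81652077, measured 25.2, 15.4 and 31.2 CPM in siComb 1, 2 and 3 and 24, 24.9 and 30.6 CPM in siControl 1, 2 and 3. The groups overlapped, with siComb 2 the lowest of the 6 libraries and siComb 3 the highest. The log2 fold change was -0.15 ± 0.29 (adjusted p = 0.722), and its sign turned to 0.12 when counts were scaled by library size alone and to 0.088 without siComb 2. The siP300 libraries held 17.9, 12.2 and 28.8 CPM of Ep300, which also overlapped siControl, so the RNA level of Ep300 does not check the label of either group. Crebbp, on chr16:4081328-4213997, measured 191, 175 and 183 CPM in siComb 1, 2 and 3 and 146, 145 and 155 CPM in siControl 1, 2 and 3, higher in every siComb library, with a log2 fold change of 0.30 ± 0.16 (adjusted p = 0.161) that did not pass the threshold except with scaling by library size alone (adjusted p = 0.0178).

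**Figure D2:**
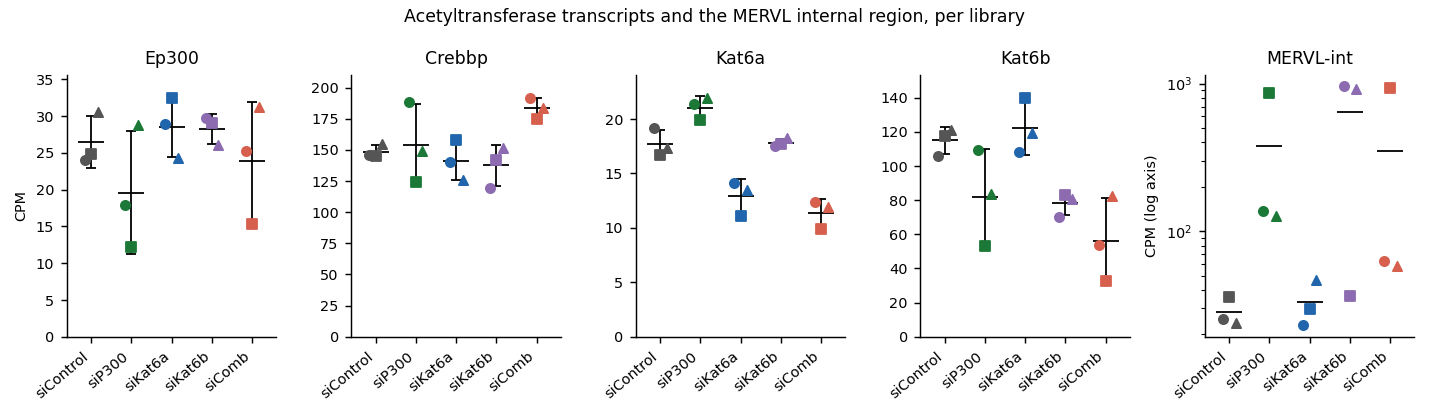
CPM of Ep300, Crebbp, Kat6a, Kat6b and the internal region of MERVL (log axis) in each library of the 5 siRNA groups; circles, squares and triangles are replicates 1, 2 and 3, black bars the mean, with the SD for the 4 genes. Kat6a and Kat6b lie below siControl in all 3 siComb libraries, and Ep300 overlaps. For MERVL, siComb 2 stands apart from the other siComb and all siControl libraries.

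Of the 19182 genes tested, 3761 (19.6%) rose and 3275 (17.1%) fell in siComb, so that 36.7% were called, and 2949 of the rising and 2002 of the falling genes changed at least 2-fold. The 3 libraries of siComb and the 3 of siControl did not overlap for 51.5% of genes, with siComb higher for 26.5% and lower for 25%. These shares are the background against which the gene groups below are read. Changes differed with the mean level of a gene. In the fifth of genes with the highest mean level 15.3% rose and 36.1% fell, and in the fifth with the lowest 12.9% rose and 4.28% fell. Their median log2 fold changes were -0.28 and 0.69. A gene near 0 in siControl passes the filter on low counts only through a group where it is higher, and can hardly be called as falling. Lists of genes low in siControl, such as 2-cell, maternal, interferon and neuronal genes, therefore lean toward rises by selection. The median over all genes was 0.09, and scaling by library size alone moved it to 0.35 and the calls to 4937 higher and 2083 lower, since TMM factors were higher in every siComb library than in every siControl library. Leaving out 1 library gave between 5221 and 6832 calls. Changes below are relative to the TMM scaling.

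The genes that rose furthest were all but silent in control morulae. Crct1, named for a cysteine-rich C-terminal protein, measured 32.6, 5.56 and 7.303 CPM in the siComb libraries and 0, 0 and 0 CPM in the siControl libraries. Rsad2 (viperin, an interferon-induced antiviral enzyme) measured 9.85, 22 and 13.1 CPM in the siComb libraries and 0, 0 and 0 CPM in the siControl libraries. Barx1, a homeobox transcription factor, measured 17.2, 11.1 and 9.801 CPM in the siComb libraries and 0, 0 and 0 CPM in the siControl libraries, and Nrk, an X-linked kinase of the placenta, 9.49, 30.6 and 3.07 CPM in the siComb libraries and 0, 0 and 0 CPM in the siControl libraries. With 3 counts over the siControl group as the floor, Crct1 was at least 149-fold higher in siComb, Rsad2 at least 141-fold, Nrk at least 134-fold and Barx1 at least 122-fold (adjusted p from 2.28e-05 for Barx1 to 0.000224 for Crct1). Under DESeq2 Crct1 did not pass (adjusted p = 0.0705). Mt3, a metallothionein that binds zinc and copper, measured 35.3, 50.8 and 54.2 CPM in the siComb libraries and 0, 0 and 0.203 CPM in the siControl libraries, a ratio of 664 with a 95% counting interval from 184 to 5491. Egr1, an immediate early transcription factor, measured 25.2, 10.1 and 9.61 CPM in the siComb libraries and 0, 0.211 and 0 CPM in the siControl libraries. These genes were absent or near 0 in all 3 control libraries and measurable in every siComb library, though siComb 1 to 3 differed several-fold among themselves for Crct1 and Nrk. Genes of largest change or smallest p, here and below, were named by a rule that required the 2 groups not to overlap.

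Other genes were near 0 in the controls. Gpnmb, a glycoprotein of lysosome-rich cells, rose from 0, 0.211 and 0.813 to 73.1, 133 and 75.5 CPM, a log2 fold change of 8.02 ± 0.67 (adjusted p = 4.54e-07). Trf (transferrin, the iron carrier) rose by 7.68 ± 0.61 and Gng3, a G protein gamma subunit of neurons, by 7.67 ± 0.54 (adjusted p = 2.74e-07 and 1.34e-07). Csf1, the macrophage growth factor, measured 37.4, 12.5 and 28.3 CPM in the siComb libraries and 0.431, 0.211 and 0 CPM in the siControl libraries, and Nxph1, a secreted ligand of neurexins, 54.8, 21.2 and 6.53 CPM in the siComb libraries and 0, 0.211 and 0.203 CPM in the siControl libraries. Both groups of libraries stayed apart for these 5 genes, as the naming rule required. The X-linked genes Nxf2, an mRNA export factor of the germline, and Zfp711, a zinc finger protein, rose by 7.64 ± 1.34 and 7.49 ± 0.90.

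The rises with the smallest p-values were tight across libraries. Impact, an imprinted inhibitor of the kinase Gcn2, measured 454, 397 and 317 CPM in siComb 1, 2 and 3 and 32.1, 36.1 and 35.8 CPM in siControl 1, 2 and 3. For Impact the change was 3.49 ± 0.20 (adjusted p = 2.93e-08). Hmox1 (heme oxygenase, which degrades heme) measured 469, 521 and 425 CPM in siComb 1, 2 and 3 and 29.3, 30.8 and 27.9 CPM in siControl 1, 2 and 3, a change of 4.01 ± 0.24 (adjusted p = 2.93e-08). Fbxo2, a ubiquitin ligase subunit that binds glycoproteins, rose by 5.63 ± 0.35, and Cox6b2, the testis form of a cytochrome c oxidase subunit, by 3.48 ± 0.22. Taf7l, a germline variant of a TFIID subunit, rose by 5.72 ± 0.38 (adjusted p = 7.97e-08). The lowest siComb library exceeded the highest siControl library for each of these 5 genes, as the naming rule required.

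Falling genes lost most of a modest control level. Hcrt (the orexin precursor, a neuropeptide of the hypothalamus) measured 0.895, 0.596 and 1.15 CPM in the siComb libraries and 22, 14.4 and 20.3 CPM in the siControl libraries. For Hcrt the change was -4.402 ± 0.42 (adjusted p = 1.22e-06). Gdf3, a TGF-beta family ligand of pluripotent cells, measured 1.79, 6.15 and 7.88 CPM in the siComb libraries and 72.3, 62.6 and 89.1 CPM in the siControl libraries, a change of -3.83 ± 0.36 (adjusted p = 1.07e-06). Tspan8, a tetraspanin of epithelial membranes, measured 1.43, 4.96 and 8.46 CPM in the siComb libraries and 71.3, 73.4 and 73.2 CPM in the siControl libraries, a change of -3.88 ± 0.42. All 3 siComb libraries lay far below the controls for each, and siComb 1 was the lowest for Gdf3 and Tspan8. Bmyc, a shortened relative of Myc, fell by 3.35 ± 0.38 from 265 ± 22.4 CPM (SD) in siControl to 25.9 ± 20.6 CPM in siComb, where siComb 3 held most of what remained. Serpinb6c, a protease inhibitor, fell by 3.55 ± 0.35, Cpn1, a secreted carboxypeptidase, fell by 3.56 ± 0.35 and Aldh1l1, an enzyme of folate metabolism, fell by 3.75 ± 0.70. Tmem171, Ccdc42, Ly6f, Magea8, Saxo1, Cd79b and Lgals4 fell with log2 fold changes between -4.16 for Tmem171 and -3.33 for Lgals4.

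The 5 falls with the smallest p-values were in Cmtm7, Chchd5, Hydin, Ezr and Pzp. Cmtm7, a membrane protein of the chemokine-like factor family, measured 59, 66.1 and 57.3 CPM in siComb 1, 2 and 3 and 269, 234 and 263 CPM in siControl 1, 2 and 3. For Cmtm7 the change was -2.07 ± 0.15 (adjusted p = 1.64e-07). Ezr (ezrin, which ties the actin cortex to the apical membrane and marks the polarised outer blastomeres) measured 10.7, 13.7 and 18.4 CPM in siComb 1, 2 and 3 and 108, 83.7 and 81.7 CPM in siControl 1, 2 and 3, a change of -2.67 ± 0.22 (adjusted p = 4.59e-07). Every siComb library lay far below every control for both. Hydin, a protein of motile cilia, fell by 2.86 ± 0.23, Chchd5, a protein of the mitochondrial intermembrane space, fell by 2.89 ± 0.23 and Pzp, a secreted protease inhibitor, fell by 2.55 ± 0.21.

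**Figure D3:**
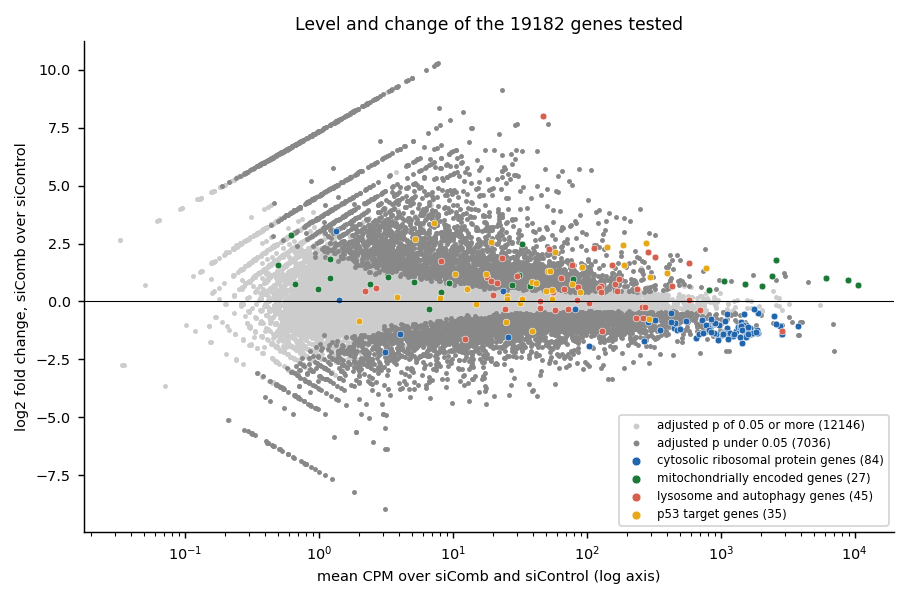
Log2 fold change of siComb over siControl against the mean CPM of the 2 groups (log axis) for the 19182 genes tested; grey tones separate adjusted p under 0.05 from the rest, and colours mark 4 gene groups. The cytosolic ribosomal protein genes lie below 0 at high levels, while mitochondrially encoded genes at like levels lie above it.

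Genes of the translation machinery fell together. Ribosomal proteins build the subunits that translate mRNA, and many of their mRNAs begin with a tract of pyrimidines (the TOP tract) through which growth signals set their translation. Of the cytosolic ribosomal protein genes, none rose and 79 of 84 tested fell, with a median log2 fold change of -1.24, against 17.1% of all genes that fell and a median of 0.09. RefSeq promoters (GRCm38.p6) were found for 63 of these genes, and 27 of them (42.9%) had a C followed by at least 5 further pyrimidines (C or T) starting within 5 bases of the annotated start, against 9.40% of all 32851 promoters. The 4 with the smallest p-values are shown from 40 bases before to 10 bases after the start, with the tract in capitals.
Rpl12 (chr2:32961672-32961721, plus strand): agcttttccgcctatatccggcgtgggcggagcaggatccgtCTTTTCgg
Rps15a (chr7:118116138-118116187, minus strand): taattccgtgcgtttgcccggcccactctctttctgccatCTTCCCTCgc
Rpl18 (chr7:45718031-45718080, plus strand): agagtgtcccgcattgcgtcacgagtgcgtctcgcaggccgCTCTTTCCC
Rpl35a (chr16:33056442-33056491, plus strand): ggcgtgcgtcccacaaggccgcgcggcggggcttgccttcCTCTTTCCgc
Rpl12, of the large subunit, measured 292, 312 and 382 CPM in siComb 1, 2 and 3 and 989, 989 and 987 CPM in siControl 1, 2 and 3. For Rpl12 the change was -1.59 ± 0.18 (adjusted p = 7.47e-06). Each siComb library lay far below the lowest control. Rps15a, Rpl18, Rpl35a, Rpl26 and Rpl36a fell, with log2 fold changes between -1.64 ± 0.18 for Rpl36a and -1.39 ± 0.17 for Rpl18. Many ribosomal protein genes have processed pseudogenes with which reads can be shared, and the median of all 642 processed pseudogenes tested was -0.79. These mRNAs are also short and abundant, and genes in the fifth with the shortest exons had a median of -0.23 and those in the fifth with the longest 0.29. The part of length and level in the fall was not tested.

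Mitochondrial ribosomal proteins, which translate the mitochondrial genome's own mRNAs, fell as well: 2 rose and 53 fell of 74 tested (median log2 fold change -0.85). Mrpl36 measured 106, 139 and 122 CPM in siComb 1, 2 and 3 and 549, 492 and 712 CPM in siControl 1, 2 and 3. For Mrpl36 the change was -2.26 ± 0.20 (adjusted p = 6.82e-07). Mrpl17 and Mrpl55 fell, with log2 fold changes of -1.55 ± 0.14 and -1.65 ± 0.17, with no overlap between groups. Of genes for ribosome assembly and RNA polymerase I, 1 rose and 27 fell of 48 tested (median log2 fold change -0.68). Ddx18, an RNA helicase of ribosome assembly, measured 70.2, 81.6 and 103 CPM in siComb 1, 2 and 3 and 251, 254 and 221 CPM in siControl 1, 2 and 3, a change of -1.51 ± 0.17 (adjusted p = 8.82e-06), while Nhp2, Pes1, Wdr12 and Fbl (fibrillarin, which methylates ribosomal RNA) fell, with log2 fold changes of -1.33 ± 0.21, -1.295 ± 0.22, -1.03 ± 0.19 and -1.15 ± 0.22. Without siComb 1, siControl 1 or siControl 2, 15 members of the assembly list still fell in each case.

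Nuclear and mitochondrial genes of respiration moved apart. Of the nuclear genes for respiratory chain subunits, 2 rose and 35 fell of 74 tested (median log2 fold change -0.46), and without siComb 1 the falling members numbered 22. Atp5k, an ATP synthase subunit, measured 217, 194 and 209 CPM in siComb 1, 2 and 3 and 408, 488 and 613 CPM in siControl 1, 2 and 3. For Atp5k the change was -1.29 ± 0.17 (adjusted p = 2.28e-05). Ndufb5, Ndufa5 and Ndufs5, subunits of complex I, fell, with log2 fold changes of -1.15 ± 0.18, -1.098 ± 0.17 and -0.97 ± 0.16. Of genes for mitochondrial transcription and translation factors, 2 rose and 11 fell of 39 tested (median log2 fold change -0.29); Ppargc1b, a coactivator of mitochondrial genes, fell by 2.23 ± 0.40 and Mtif3, an initiation factor, fell by 1.07 ± 0.20, whereas Gfm2, a ribosome recycling factor, rose by 1.14 ± 0.18. Mitochondrially encoded RNAs rose instead: 16 of 27 tested passed and none fell (median 0.85). The cytochrome c oxidase subunit mt-Co1 measured 4380.3, 3866 and 3863 CPM in siComb 1, 2 and 3 and 1060.4, 1209 and 1229.6 CPM in siControl 1, 2 and 3, a change of 1.79 ± 0.16 (adjusted p = 6.31e-07). Complex I subunits mt-Nd1 and mt-Nd2 rose by 1.03 ± 0.15 and 1.09 ± 0.15, and each siComb library exceeded each control. Summed over each list, mitochondrially encoded genes held 47868, 48645 and 45453 CPM in siComb and 21163, 26199 and 27828 CPM in siControl, and nuclear respiratory chain genes 19528, 22364 and 22289 and 27581, 27608 and 33566 CPM.

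**Figure D4:**
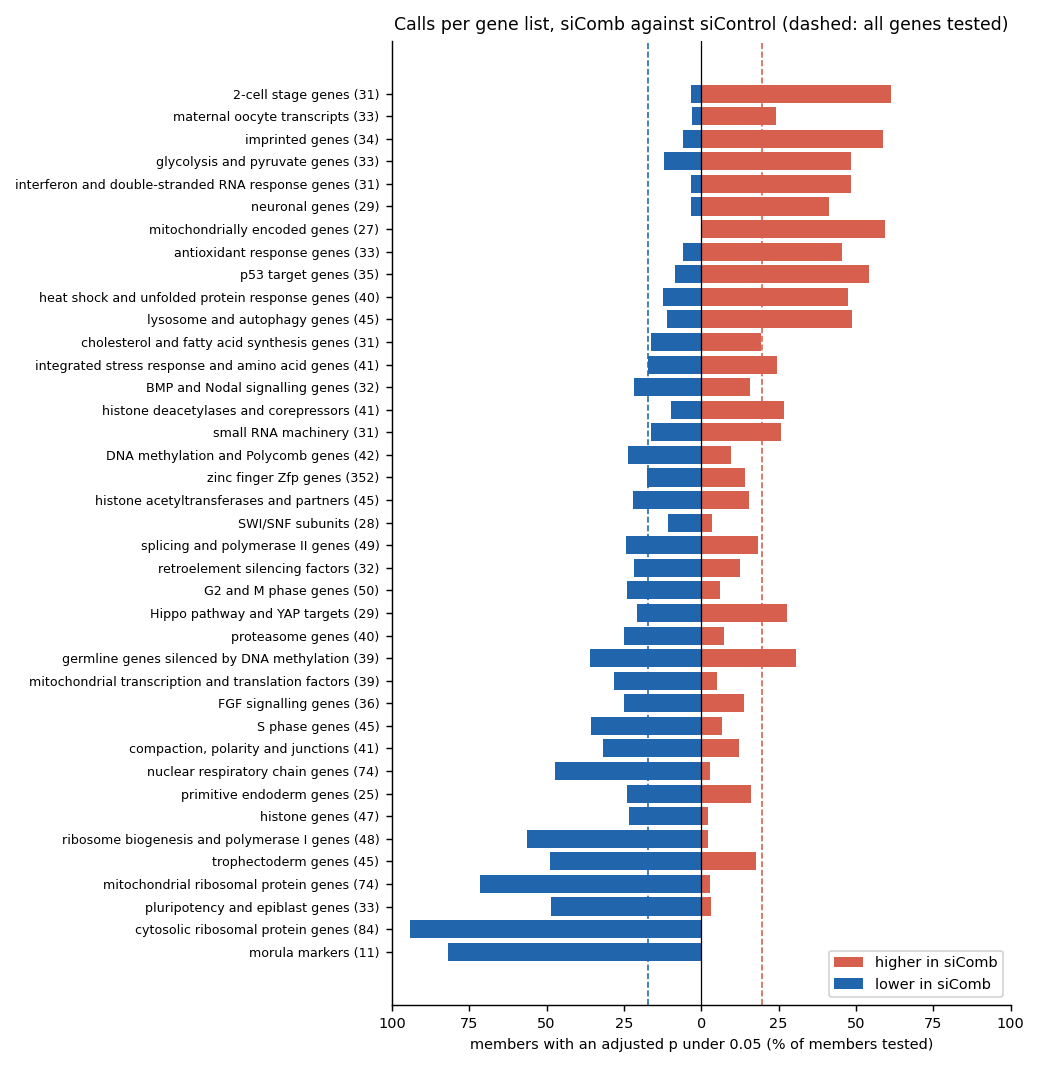
Share of the members tested of each gene list that rose (red, right) or fell (blue, left) in siComb against siControl (%), for lists with at least 10 members tested, ordered by median log2 fold change; the number tested stands in brackets and dashed lines mark the shares of all genes, 19.6% and 17.1%. The cytosolic ribosomal protein, morula marker and mitochondrial ribosomal protein lists reach furthest left, and 2-cell, imprinted, mitochondrially encoded and p53 lists furthest right.

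The tissue label was checked against 12 markers of morula blastomeres, of which 11 were tested. In siComb 9 of 11 fell and none rose (median -1.31), and 10 of 11 were lower in every siComb library than in every control, against 25% of all genes tested. Pou5f1 (Oct4, the pluripotency factor) measured 11.8, 14.9 and 17.9 CPM in siComb 1, 2 and 3 and 55.5, 54.4 and 35 CPM in siControl 1, 2 and 3. For Pou5f1 the change was -1.701 ± 0.36 (adjusted p = 0.00155). Cdx2, the transcription factor of trophectoderm, measured 0.537, 3.18 and 5.57 CPM in siComb 1, 2 and 3 and 28.2, 35.8 and 28.9 CPM in siControl 1, 2 and 3, a change of -3.32 ± 0.47 (adjusted p = 5.39e-05). Gata3, a second trophectoderm factor, measured 69.5, 37.3 and 93.8 CPM in siComb 1, 2 and 3 and 263, 267 and 245 CPM in siControl 1, 2 and 3, a change of -1.95 ± 0.36 (adjusted p = 0.000526). Pou5f1, Cdx2 and Gata3 stood at a reduced level in siComb, with Cdx2 near 0 in siComb 1 at 0.537 CPM. Markers of both future lineages were thus reduced.

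Within the wider lineage lists, genes of pluripotency and epiblast fell, with 1 rising and 16 falling of 33 tested (median log2 fold change -0.85). Dppa3 (Stella, a maternal protein that shields methylation marks) measured 1918, 3016 and 2969 CPM in siComb 1, 2 and 3 and 9981, 9518 and 14869 CPM in siControl 1, 2 and 3. For Dppa3 the change was -2.12 ± 0.25 (adjusted p = 1.26e-05), and was by far the most abundant of the list. Utf1, a chromatin factor of pluripotent cells, measured 16.1, 17.9 and 18.8 CPM in siComb 1, 2 and 3 and 72.6, 70.2 and 65.5 CPM in siControl 1, 2 and 3, a change of -1.98 ± 0.19 (adjusted p = 1.22e-06). Zfp42 (Rex1) and Trim28, the corepressor of zinc finger proteins, fell, with log2 fold changes of -1.34 ± 0.21 and -1.13 ± 0.20. Of trophectoderm genes, 8 rose and 22 fell of 45 tested (median log2 fold change -0.77). Id2, an inhibitor of helix-loop-helix factors found in outer cells, measured 86.8, 49 and 103 CPM in siComb 1, 2 and 3 and 545, 466 and 497 CPM in siControl 1, 2 and 3, a change of -2.66 ± 0.28 (adjusted p = 2.92e-06), and Dab2 and Cubn, endocytic adaptor and receptor, fell, with log2 fold changes of -1.91 ± 0.17 and -2.96 ± 0.31. Cldn6, a tight junction claudin, went the other way, with 166, 188 and 167 CPM in siComb 1, 2 and 3 and 26.3, 18.6 and 25.4 CPM in siControl 1, 2 and 3, a change of 2.89 ± 0.22 (adjusted p = 1.98e-07). Of primitive endoderm genes, 4 rose and 6 fell of 25 tested (median log2 fold change -0.49). The shares were 16% and 24%, against 19.6% and 17.1% of all genes. Gata6, a transcription factor of that lineage, fell by 1.903 ± 0.34, while Sparc, a matrix protein, rose by 3.41 ± 0.30 (adjusted p = 0.000406 and 7.31e-07).

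Genes of compaction, polarity and cell junctions were lower in part: 5 rose and 13 fell of 41 tested (median log2 fold change -0.36). Prkcz (an atypical protein kinase C of the apical domain) measured 49.8, 47.4 and 76.3 CPM in siComb 1, 2 and 3 and 113, 121 and 132 CPM in siControl 1, 2 and 3. For Prkcz the change was -1.08 ± 0.20 (adjusted p = 0.000572). Dsg2 (desmoglein), Actn4 (actinin) and Scrib, a basolateral polarity protein, fell, with log2 fold changes of -1.67 ± 0.28, -1.17 ± 0.25 and -1.21 ± 0.29. The falling members numbered 8 without siComb 1, 8 without siComb 2 and 6 without siControl 2, and the rising ones 3, 3, 2 and 3 without siComb 1, siControl 1, siControl 2 and siControl 3. In the Hippo pathway, which tells inner from outer cells, 8 rose and 6 fell of 29 tested (median log2 fold change -0.16, but 0.0947 with scaling by library size alone), with 5 rising without siControl 1. Mob1b and Mob1a, activators of the Lats kinases, rose by 1.38 ± 0.17 and 0.95 ± 0.17, while Wwtr1 (Taz, the coactivator they restrain) and Amot, its junctional anchor, fell, with log2 fold changes of -1.502 ± 0.22 and -1.49 ± 0.25. For Wwtr1 the libraries held 51.9, 48.4 and 67.6 CPM in siComb 1, 2 and 3 and 158, 160.2 and 158 CPM in siControl 1, 2 and 3, with a wide gap between the groups. FGF signalling genes had 5 rising and 9 falling of 36 tested (median log2 fold change -0.31); Dusp6, a feedback phosphatase of ERK, fell by 2.83 ± 0.53 and Fosl1, a transcription factor downstream of ERK, rose by 3.35 ± 0.47. BMP and Nodal genes had 5 rising and 7 falling of 32 tested (median log2 fold change 0.14), where Id3, a BMP target, fell by 1.53 ± 0.31, Pcsk6, a protease that matures Nodal, fell by 1.503 ± 0.33 and Id4 rose by 4.18 ± 0.82. Without siComb 1, siComb 2, siControl 1 or siControl 2, 3 BMP and Nodal members rose in each case. Rising and falling shares were 27.6% and 20.7% for the Hippo pathway, 13.9% and 25% for FGF signalling and 15.6% and 21.9% for BMP and Nodal genes. Those of all genes were 19.6% and 17.1%.

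Cell cycle genes were examined in 2 phases. Of S phase genes, 3 rose and 16 fell of 45 tested (median log2 fold change -0.32), and of G2 and M phase genes, 3 rose and 12 fell of 50 tested (median log2 fold change -0.15, but 0.115 with scaling by library size alone). Tyms (thymidylate synthase) measured 144, 167 and 168 CPM in siComb 1, 2 and 3 and 462, 433 and 495 CPM in siControl 1, 2 and 3. For Tyms the change was -1.54 ± 0.19 (adjusted p = 1.88e-05), and Rfc4 and Mcm3, which load and open replication forks, fell, with log2 fold changes of -1.77 ± 0.30 and -1.16 ± 0.20. The 2 E-type cyclins, which start S phase, rose: Ccne2 measured 108, 137 and 119.8 CPM in siComb 1, 2 and 3 and 21.5, 16 and 25.8 CPM in siControl 1, 2 and 3, a change of 2.53 ± 0.23 (adjusted p = 8.29e-07), and Ccne1 rose by 1.29 ± 0.23. Birc5 (survivin), Plk1 and Ndc80, all of mitosis, fell, with log2 fold changes of -0.92 ± 0.19, -1.04 ± 0.22 and -0.70 ± 0.18. Without siComb 1 the falling S phase members numbered 10, and the falling G2 and M phase members numbered 7, 5, 5 and 6 without siComb 1, siComb 2, siControl 1 and siControl 2, where 1 rose without siComb 1 or any control.

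Targets of p53, the stress-activated transcription factor that halts division or starts cell death, rose as a group: 19 rose and 3 fell of 35 tested (median log2 fold change 0.79), against 19.6% of all genes that rose. Mdm2, the ubiquitin ligase through which p53 limits itself, measured 546, 428 and 440.1 CPM in siComb 1, 2 and 3 and 81.4, 86 and 81.6 CPM in siControl 1, 2 and 3. For Mdm2 the change was 2.51 ± 0.20 (adjusted p = 3.04e-07). Trp53inp1, a p53-induced regulator of autophagy and death, measured 246, 261 and 198 CPM in siComb 1, 2 and 3 and 46.7, 39 and 53.5 CPM in siControl 1, 2 and 3, a change of 2.34 ± 0.18 (adjusted p = 1.80e-07). All 3 siComb libraries held several times the control level for both. Pmaip1 (Noxa, a pro-death BH3 protein), Btg2 (an antiproliferative factor) and Ccng1 (cyclin G1) rose by 2.45 ± 0.29, 1.57 ± 0.20 and 1.43 ± 0.15.

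Antioxidant genes, many of them targets of the factor Nrf2, also rose, with 15 rising and 2 falling of 33 tested (median log2 fold change 0.81). Besides Hmox1, Gstm1, a glutathione transferase, measured 116, 115 and 122 CPM in siComb 1, 2 and 3 and 6.03, 4.22 and 3.25 CPM in siControl 1, 2 and 3. For Gstm1 the change was 4.71 ± 0.45 (adjusted p = 1.21e-06). Nqo1, a quinone reductase, measured 68, 52.6 and 94.4 CPM in siComb 1, 2 and 3 and 6.46, 5.48 and 8.54 CPM in siControl 1, 2 and 3, a change of 3.39 ± 0.31 (adjusted p = 8.29e-07). G6pdx, the entry enzyme of the pentose phosphate pathway, and Fth1, the ferritin heavy chain, rose by 2.18 ± 0.23 and 1.25 ± 0.17. In the list of heat shock and unfolded protein genes, 19 rose and 5 fell of 40 tested (median log2 fold change 0.63), with 3 falling without siControl 3. Dnajc3, an endoplasmic reticulum cochaperone, measured 309.9, 426 and 284 CPM in siComb 1, 2 and 3 and 52.3, 40.3 and 33.5 CPM in siControl 1, 2 and 3, a change of 3.02 ± 0.24 (adjusted p = 2.40e-07), and Pdia3, Edem1, Hspa4l and Hspb1 rose by 2.005 ± 0.21, 1.22 ± 0.18, 2.69 ± 0.25 and 1.798 ± 0.26. The summed level of that list was not higher, at 15012, 16606 and 17819.6 CPM in siComb and 22883, 20949 and 18515 CPM in siControl.

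In the list of the integrated stress response, in which the factor Atf4 raises amino acid transporters and enzymes, 10 rose and 7 fell of 41 tested (median log2 fold change 0.24), both near the shares of all genes, and 4 fell without siControl 1. RefSeq promoters were found for 36 of its genes. The CARE element to which Atf4 and Cebp factors bind, TGATGCAA, was searched on both strands from 250 bases before to 10 after the start. It was found in 9 of the 36 (25%), against 0.828% of all promoters, and in 4 of the 9 rising and 4 of the 25 other tested genes with a promoter. Here and below, a list gene counts if any of its promoters holds the element. The share of all promoters counts each promoter singly, so the 2 shares differ in unit. The 4 rising genes that hold it are shown with the element in capitals, on either strand.
Atf3 (chr1:191183410-191183469, minus strand): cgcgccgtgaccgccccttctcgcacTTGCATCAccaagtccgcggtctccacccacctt
Slc1a4 (chr11:20332704-20332763, minus strand): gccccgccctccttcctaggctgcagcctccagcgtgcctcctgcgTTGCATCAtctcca
Vldlr (chr19:27216794-27216853, plus strand): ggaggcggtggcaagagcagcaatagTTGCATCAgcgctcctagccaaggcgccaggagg
Pycr1 (chr11:120643818-120643877, minus strand): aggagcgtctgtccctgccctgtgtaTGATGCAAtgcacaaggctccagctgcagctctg
Atf3, a stress-induced transcription factor, measured 53.3, 62.5 and 31.3 CPM in siComb 1, 2 and 3 and 1.08, 2.95 and 2.64 CPM in siControl 1, 2 and 3. For Atf3 the change was 4.45 ± 0.54 (adjusted p = 1.39e-05). Slc1a4, an amino acid exchanger, measured 29.7, 17.7 and 22.3 CPM in siComb 1, 2 and 3 and 1.18, 0.422 and 0.915 CPM in siControl 1, 2 and 3, a change of 4.77 ± 0.64 (adjusted p = 3.33e-05), and Vldlr, a lipoprotein receptor, rose by 2.46 ± 0.39. Pycr1, of proline synthesis, was low in all libraries and rose by 1.55 ± 0.46, a call lost without siControl 1 (adjusted p = 0.0544) and with no filter on low counts (adjusted p = 0.0848). Ddit3 (Chop, a death-promoting factor), Slc3a2 and Slc7a3, both amino acid transporter chains, rose by 2.36 ± 0.30, 1.37 ± 0.19 and 6.49 ± 0.80.

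Of lysosome and autophagy genes, 22 rose and 5 fell of 45 tested (median log2 fold change 0.54), while 3 fell without siComb 3 and 3 without siControl 2. The summed level of the list was not higher, at 8965, 9452 and 9333 CPM in siComb and 9354, 9663 and 9575 CPM in siControl. Many such genes carry the sequence TCACGTG, the core of the CLEAR element bound by Tfeb and Tfe3. It was found on either strand of a promoter in 10 of the 35 genes with one (28.6%), against 3.38% of all promoters counted singly. Of tested genes, 5 of 15 rising and 5 of 19 others held it. The 4 rising genes with the smallest p-values among those holding it are shown with the match in capitals.
Fnip1 (chr11:54438077-54438136, plus strand): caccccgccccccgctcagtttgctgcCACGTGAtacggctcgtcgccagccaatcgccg
Ctsd (chr7:142387893-142387952, minus strand): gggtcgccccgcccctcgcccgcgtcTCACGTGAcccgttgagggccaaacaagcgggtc
Mcoln1 (chr8:3500447-3500506, plus strand): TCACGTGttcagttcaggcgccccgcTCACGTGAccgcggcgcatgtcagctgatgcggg
Ctsa (chr2:164833723-164833782, plus strand): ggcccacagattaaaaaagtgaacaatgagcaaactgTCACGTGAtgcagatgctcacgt
Ctsa (cathepsin A, a protective protein of lysosomal enzymes) measured 619, 456 and 518 CPM in siComb 1, 2 and 3 and 382, 349 and 284 CPM in siControl 1, 2 and 3. For Ctsa the change was 0.65 ± 0.16 (adjusted p = 0.00431). Ctsd (cathepsin D) measured 36.4, 34.2 and 38.8 CPM in siComb 1, 2 and 3 and 11, 11.4 and 7.42 CPM in siControl 1, 2 and 3, a change of 1.88 ± 0.28 (adjusted p = 9.11e-05). Fnip1, a folliculin partner, and Mcoln1, the lysosomal calcium channel, rose by 1.58 ± 0.20 and 1.06 ± 0.25. Among members without the match in the window or without a promoter entry, Ctsb (cathepsin B) measured 435, 524 and 432 CPM in siComb 1, 2 and 3 and 105, 119 and 95.3 CPM in siControl 1, 2 and 3, a change of 2.12 ± 0.19 (adjusted p = 8.29e-07), and Atp6ap1, a proton pump subunit, Lamp2, a membrane protein, and Gusb, a glucuronidase, rose by 2.33 ± 0.20, 1.93 ± 0.18 and 2.25 ± 0.23. The libraries did not overlap for any of the 8 genes named here.

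Genes of glycolysis and pyruvate use rose, with 16 rising and 4 falling of 33 tested (median log2 fold change 0.92); cleavage embryos rely on pyruvate before they turn to glucose. Ldhb (lactate dehydrogenase B) measured 137, 331 and 166 CPM in siComb 1, 2 and 3 and 2.799, 4.85 and 4.68 CPM in siControl 1, 2 and 3. For Ldhb the change was 5.68 ± 0.43 (adjusted p = 1.80e-07). Ldha, the A subunit, measured 278, 223 and 204 CPM in siComb 1, 2 and 3 and 32.7, 31.2 and 30.7 CPM in siControl 1, 2 and 3, a change of 2.896 ± 0.28 (adjusted p = 1.54e-06). Pgk1 and Tpi1, glycolytic enzymes, and Pdk3, which turns pyruvate away from the mitochondrion, rose by 2.99 ± 0.27, 2.35 ± 0.22 and 3.23 ± 0.28, with all siComb libraries above all controls. In the list of cholesterol and fatty acid synthesis, 6 rose and 5 fell of 31 tested (19.4% and 16.1%, median log2 fold change 0.31). Both were near the shares of all genes, 19.6% and 17.1%. Sc5d and Msmo1 rose by 2.68 ± 0.29 and 1.63 ± 0.24, and Mvd and the desaturase Scd1 fell, with log2 fold changes of -1.56 ± 0.25 and -1.56 ± 0.26.

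Interferon-stimulated genes, normally low in the preimplantation embryo, rose from low levels: 15 rose and 1 fell of 31 tested (median log2 fold change 0.92). Of the 46 listed, only these 31 passed the filter on low counts, which leaves little room for a fall from such levels. The core of the interferon-stimulated response element (TTTC, any 2 bases and again TTTC) was searched on either strand. A promoter of 11 of the 34 list genes with one held it (32.4%), against 3.07% of all promoters counted singly. It was found in 4 of 12 rising and 2 of 12 other tested genes. All 4 rising genes that hold it are shown, with the match in capitals.
Rsad2 (chr12:26456538-26456597, minus strand): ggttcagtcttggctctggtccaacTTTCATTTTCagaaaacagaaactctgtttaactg
Cxcl10 (chr5:92349068-92349127, minus strand): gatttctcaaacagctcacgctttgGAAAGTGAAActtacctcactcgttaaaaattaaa
Bst2 (chr8:71537562-71537621, minus strand): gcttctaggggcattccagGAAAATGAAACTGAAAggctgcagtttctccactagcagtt
Stat2 (chr10:128270251-128270310, plus strand): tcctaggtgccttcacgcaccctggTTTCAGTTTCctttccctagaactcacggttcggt
Cxcl10, a chemokine, measured 9.49, 12.7 and 8.84 CPM in siComb 1, 2 and 3 and 0.861, 1.27 and 1.22 CPM in siControl 1, 2 and 3. For Cxcl10 the change was 3.198 ± 0.61 (adjusted p = 0.000693). Ifitm3, a membrane protein that blocks virus entry, measured 14.9, 31.2 and 32.1 CPM in siComb 1, 2 and 3 and 1.08, 1.05 and 1.83 CPM in siControl 1, 2 and 3, a change of 4.29 ± 0.67 (adjusted p = 0.000139). Bst2 (tetherin), Stat2, Irf1, Ifi35 and Ifitm1 rose by 1.13 ± 0.26, 0.78 ± 0.21, 3.92 ± 0.64, 1.71 ± 0.29 and 5.02 ± 0.78. Both groups received double-stranded RNA by injection, and the summed level of the list was 305, 348 and 347 CPM in siComb and 171, 173 and 141 CPM in siControl. Whether the amount of siRNA injected was the same is not given in the labels and its part was not tested. Of the small RNA machinery, through which siRNAs act, 8 rose and 5 fell of 31 tested (median log2 fold change 0.10): Prkra, a Dicer partner, Ago3 and Tnrc6c rose by 3.05 ± 0.33, 1.25 ± 0.18 and 1.84 ± 0.30 and Dcp2, which removes the cap of mRNA, fell by 1.27 ± 0.20. The rising members numbered 5 without siComb 1 and 5 without siControl 1, and the falling ones 2 without siComb 2, siControl 1 or siControl 2. Small RNA shares were 25.8% rising and 16.1% falling, against 19.6% and 17.1% of all genes.

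Chromatin regulators moved in both directions, as did all genes tested, of which 19.6% rose and 17.1% fell. For acetyltransferases and their partners the shares were 15.6% and 22.2%. Of histone acetyltransferases and their partners, 7 rose and 10 fell of 45 tested (median log2 fold change -0.0046, but 0.262 with scaling by library size alone), with 6 falling without siComb 2 and 4 rising without siControl 2. Ing5, a subunit of MYST complexes, measured 24, 21.4 and 17.7 CPM in siComb 1, 2 and 3 and 56, 49.97 and 41.1 CPM in siControl 1, 2 and 3. For Ing5 the change was -1.22 ± 0.18 (adjusted p = 6.77e-05), and Jade3, an X-linked scaffold of another MYST complex, rose by 1.604 ± 0.18. Trrap, a scaffold shared by acetyltransferase complexes, rose by 1.14 ± 0.22, while Cited1, which binds the p300 and CBP proteins, fell by 1.32 ± 0.25 and Supt20 fell by 0.75 ± 0.15. Of histone deacetylases and corepressors, 11 rose and 4 fell of 41 tested (median log2 fold change 0.11), with 2 falling without siComb 1. Hdac1 measured 349.8, 308 and 429 CPM in siComb 1, 2 and 3 and 167, 166 and 119.8 CPM in siControl 1, 2 and 3, a change of 1.26 ± 0.21 (adjusted p = 0.000247), and its paralogue Hdac2 moved the other way, with 51.2, 58.4 and 70.5 CPM in siComb 1, 2 and 3 and 96.7, 98.5 and 103 CPM in siControl 1, 2 and 3, a change of -0.73 ± 0.17 (adjusted p = 0.0033). Sirt2, Chd3 and Rbbp7 rose by 1.85 ± 0.35, 2.52 ± 0.49 and 0.91 ± 0.20.

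Among DNA methylation and Polycomb genes, 4 rose and 10 fell of 42 tested (median log2 fold change 0.03), with 8 rising without siComb 2. The methyltransferase Dnmt3b measured 23.1, 23 and 23.5 CPM in siComb 1, 2 and 3 and 69.4, 62.2 and 64 CPM in siControl 1, 2 and 3. For Dnmt3b the change was -1.49 ± 0.22 (adjusted p = 7.25e-05), its cofactor Dnmt3l fell by 1.71 ± 0.21 and Tet1, which oxidises methylcytosine, fell by 1.15 ± 0.20. Ring1, a Polycomb ubiquitin ligase, fell by 2.81 ± 0.48, and Yaf2, a partner of Ring proteins, rose by 1.01 ± 0.18. SWI/SNF subunits had the lowest share of calls among the chromatin lists described here, with 1 rising and 3 falling of 28 tested (median log2 fold change -0.08, but 0.183 with scaling by library size alone): Bcl7b and Dpf2 fell, with log2 fold changes of -0.78 ± 0.20 and -0.81 ± 0.23 and Ss18l1 rose by 1.69 ± 0.49, calls lost for Dpf2 with scaling by library size alone (adjusted p = 0.0693) and for Ss18l1 without siControl 1 (adjusted p = 0.0605). Factors that silence retroelements had 4 rising and 7 falling of 32 tested (median log2 fold change -0.13, but 0.136 with scaling by library size alone), with 4 falling without siComb 1 or siComb 3; Smchd1, needed for X inactivation, rose by 1.001 ± 0.20, and Ehmt2 (the methyltransferase G9a) and Zfp932 fell, with log2 fold changes of -1.32 ± 0.27 and -0.996 ± 0.20. Zinc finger genes named Zfp had 50 rising and 62 falling of 352 tested (median log2 fold change 0.02), with 30 or 31 rising when siComb 1 or any control was left out. Histone genes had 1 rising and 11 falling of 47 tested (median log2 fold change -0.62), with log2 fold changes of -1.73 ± 0.28 for H4c9, -3.64 ± 0.90 for H1f1 and -0.70 ± 0.16 for H3f3a. Histone mRNAs mostly lack a poly(A) tail and their copies share sequence, so levels in polyadenylated RNA are uncertain.

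MERVL is an endogenous retrovirus transcribed at the 2-cell stage and silent by the morula, together with a set of 2-cell genes. Its internal region, MERVL-int, measured 63.4, 932 and 57.8 CPM in siComb 1, 2 and 3 and 25.5, 35.7 and 24.1 CPM in siControl 1, 2 and 3. The library siComb 2 stood apart, far above the other siComb libraries, which themselves lay above every control. The log2 fold change was 3.63 ± 1.11 (adjusted p = 0.0177) and fell to 1.09 (adjusted p = 0.368) without siComb 2. It also missed the threshold without siControl 1 (adjusted p = 0.0647) or siControl 3 (0.0653). MERVL_2A-int measured 32, 42.6 and 28.3 CPM in siComb 1, 2 and 3 and 18.1, 22.8 and 24.3 CPM in siControl 1, 2 and 3, higher in every siComb library, with a log2 fold change of 0.66 ± 0.28 (adjusted p = 0.076). Of 2-cell genes, 19 rose and 1 fell of 31 tested (median log2 fold change 5.05), but 2 of 31 rose and none fell without siComb 2, with a median of 0.43. Zscan4c, a 2-cell factor, measured 0.179, 89.7 and 0.192 CPM in siComb 1, 2 and 3 and 0.431, 0.211 and 0.61 CPM in siControl 1, 2 and 3, so that the rise lay in siComb 2 alone and its sign turned without that library (-1.12, adjusted p = 0.559). Tcstv1, Gm8300, Usp17la and Usp17lc, of multicopy 2-cell families, were also highest in siComb 2: Usp17lc measured 4.21, 124 and 2.69 CPM in siComb 1, 2 and 3 and 0.215, 0.211 and 0.407 CPM in siControl 1, 2 and 3, and Tcstv1 1.97, 54.6 and 1.15 CPM in the siComb libraries and 0.215, 0.211 and 0.203 CPM in the siControl libraries. Without siComb 2, Gm8300 and Usp17lc lost their calls (adjusted p = 0.233 and 0.0829). Copies of these families share reads, so the level of a single copy is uncertain. The summed level of the 2-cell list was 1221, 2722 and 1016 CPM in siComb and 1188, 1269 and 1221 CPM in siControl. It was 1948, 2827 and 935 CPM in siP300 and 1575, 1350 and 1188 CPM in siKat6a. In siKat6b it was 2226, 1207 and 2241 CPM, so high levels were also found outside siComb 2.

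Imprinted genes, expressed from 1 parental allele, were mostly called as rising, against 19.6% of all genes: 20 rose and 2 fell of 34 tested (median log2 fold change 1.12). Phlda2, a maternally expressed brake on placental growth, measured 294, 337 and 282 CPM in siComb 1, 2 and 3 and 19.4, 29.3 and 24.8 CPM in siControl 1, 2 and 3. For Phlda2 the change was 3.63 ± 0.29 (adjusted p = 2.92e-07). Cdkn1c, a maternally expressed inhibitor of the cell cycle, measured 36, 36.9 and 23.4 CPM in siComb 1, 2 and 3 and 1.94, 4.22 and 2.85 CPM in siControl 1, 2 and 3, a change of 3.41 ± 0.31 (adjusted p = 8.29e-07). Nnat (neuronatin, paternally expressed) and the long noncoding RNA Meg3 (maternally expressed) rose by 4.86 ± 0.48 and 5.01 ± 0.60. Genes of both parental origins thus rose in all siComb libraries, and the alleles were not measured. Germline genes kept silent by DNA methylation were mixed, with 12 rising and 14 falling of 39 tested (median log2 fold change -0.25, but 0.00919 with scaling by library size alone). Tex15 measured 282, 217 and 198 CPM in siComb 1, 2 and 3 and 8.29, 15.8 and 20.8 CPM in siControl 1, 2 and 3, a change of 3.95 ± 0.40 (adjusted p = 2.25e-06), Meioc, a meiosis factor, and Tex19.1 rose by 5.13 ± 0.64 and 1.78 ± 0.19, and Cyct, the testis cytochrome c, fell by 2.24 ± 0.22. Maternal oocyte transcripts had 8 rising and 1 falling of 33 tested (median log2 fold change 1.14), with 5 rising without siComb 1, siComb 2, siControl 2 or siControl 3; Btg4, which drives maternal RNA clearance, measured 10.7, 13.3 and 11.7 CPM in siComb 1, 2 and 3 and 1.08, 0.422 and 0.813 CPM in siControl 1, 2 and 3, and Uchl1, Dazl and Nlrp4f rose by 2.45 ± 0.32, 3.37 ± 0.46 and 1.39 ± 0.30. The falling member was Ooep, a maternal protein of the subcortical complex, which fell by 2.33 ± 0.22.

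Genes of neurons, a cell type the morula lacks, had 12 rising and 1 falling of 29 tested (median log2 fold change 0.88). Of the 35 listed, only these 29 passed the filter on low counts. For genes near 0 in siControl that filter leaves little room for a fall. Kif5c, a neuronal kinesin, measured 35.1, 26.2 and 19 CPM in siComb 1, 2 and 3 and 1.94, 1.898 and 2.44 CPM in siControl 1, 2 and 3. For Kif5c the change was 3.67 ± 0.41 (adjusted p = 6.02e-06). Elavl3, an RNA-binding protein of neurons, and Bex2 rose by 3.68 ± 0.42 and 4.99 ± 0.59, while Chga, of secretory granules, fell by 2.46 ± 0.41. General splicing and polymerase II genes had 9 rising and 12 falling of 49 tested (median log2 fold change -0.08, but 0.189 with scaling by library size alone), with 4 rising without siComb 1, and the polymerase subunits Polr2i and Polr2l and the splicing factor Sf3a1 fell, with log2 fold changes of -1.31 ± 0.18, -1.0 ± 0.17 and -1.09 ± 0.19. Splicing and polymerase II shares were 18.4% rising and 24.5% falling, against 19.6% and 17.1% of all genes. Proteasome genes had 3 rising and 10 falling of 40 tested (median log2 fold change -0.23, but 0.0316 with scaling by library size alone), with 4, 6 and 6 falling without siComb 1, siControl 1 and siControl 3. Psmd8 and Pomp, a subunit and an assembly factor of the constitutive proteasome, fell, with log2 fold changes of -1.09 ± 0.16 and -0.73 ± 0.18, whereas Psme2, Psme4 and the immunoproteasome subunit Psmb8 rose. For Psmb8 the libraries held 6.44, 10.1 and 9.61 CPM in siComb 1, 2 and 3 and 0.215, 0 and 0 CPM in siControl 1, 2 and 3, a ratio of 124 with a 95% counting interval from 34 to 1028.

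A larger share of X-linked than of autosomal genes rose, a class examined after gene values had been seen and given here as a description. Of 686 X-linked genes tested, 260 (37.9%) rose and 66 (9.62%) fell, with a median log2 fold change of 0.78. Of 17954 autosomal genes, 3414 (19%) rose and 3144 (17.5%) fell, with a median of 0.08. When each library was left out in turn, between 28.2% and 34.7% of X-linked and between 13.2% and 17.6% of autosomal genes rose. X-linked genes took 3.71, 4.26 and 3.83% of counts in siComb 1, 2 and 3 and 3.33, 3.11 and 3.01% in siControl 1, 2 and 3, so that no library overlapped. In siP300 1, 2 and 3 they took 3.64, 3.79 and 3.85%. Against siP300, 0.583% of X-linked and 0.524% of autosomal genes were higher in siComb. Xist, the RNA that coats the inactive X, measured 148, 25 and 259 CPM in siComb 1, 2 and 3 and 256, 233 and 208 CPM in siControl 1, 2 and 3, with siComb 2 far below the rest (adjusted p = 0.34). Its antisense partner Tsix overlaps it, and the strand setting of the counts is not given in the sources used here. The summed level of 6 Y-linked genes was 290.2, 232 and 140.0 CPM in siComb and 117, 141 and 203 CPM in siControl, which overlapped, so the share of male embryos could not be read from them exactly. Zfy1 and Zfy2, Y-linked zinc finger genes, rose by 2.81 ± 0.73 and 2.04 ± 0.72, and Zfy2 failed to pass without siComb 1, siComb 2 or any single control.

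Markers of other cells that a pool of embryos could carry were low in siControl, and some were higher in siComb. Those near 0 in siControl passed the filter on low counts only through groups where they were higher, so falls could hardly be called. Of 10 cumulus and granulosa markers 4 could be tested and 3 rose, and their summed level was 20.1, 26.8 and 12.1 CPM in siComb and 4.74, 4.85 and 3.96 CPM in siControl. Cyp11a1, a steroid synthesis enzyme, measured 5.37, 15.3 and 2.11 CPM in the siComb libraries and 0.861, 0.843 and 0.508 CPM in the siControl libraries, Tnfaip6 4.65, 5.76 and 4.997 CPM in the siComb libraries and 1.08, 0.422 and 0.61 CPM in the siControl libraries and Foxl2 4.12, 1.79 and 0.577 CPM in the siComb libraries and 0.431, 0.633 and 0.203 CPM in the siControl libraries, and Foxl2 lost its call whenever any library except siComb 3 was left out. Oviduct and stromal markers had 3 of 10 tested and none called, with Vim (vimentin) at 4.65, 5.96 and 7.495 CPM in the siComb libraries and 5.598, 8.22 and 10.8 CPM in the siControl libraries. Of 10 blood and immune markers 5 were tested and 3 rose, with a summed level of 93.9, 147 and 113 CPM in siComb and 6.67, 7.27 and 6.099 CPM in siControl. Hba-a1 (alpha globin) measured 23.3, 65 and 57.5 CPM in the siComb libraries and 0.861, 1.27 and 0.61 CPM in the siControl libraries, Cd68, a lysosomal protein of macrophages, 63.5, 72.4 and 43 CPM in the siComb libraries and 3.66, 4.01 and 3.66 CPM in the siControl libraries and Cd79a, of B cells, 5.73, 5.36 and 11 CPM in the siComb libraries and 0.861, 0.422 and 0.203 CPM in the siControl libraries. In siP300 the summed level of cumulus and granulosa markers was 15.6, 29.5 and 27.1 CPM. That of blood and immune markers was 59.8, 165 and 127 CPM. Levels of these markers moved with the groups, and their part in the other results was not tested.

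The siComb mixture was next set beside each single injection. Against siKat6a, 6899 genes (36%) were called, 3674 higher and 3225 lower in siComb. Against siKat6b, 6051 genes (31.5%) were called, 3148 higher and 2903 lower. Against siP300 the number was 151 (0.787%), 98 (0.511%) higher and 53 (0.276%) lower, although 2598 genes had an unadjusted p under 0.05. No gene was called in a fit of siComb and siP300 alone, with residual spread estimated from 6 libraries, where 0 of 17573 passed by edgeR and 1568 had an unadjusted p under 0.05. In the fit of all 5 groups DESeq2 called 618 genes. Leaving out 1 library gave between 26 (without siComb 1) and 165 calls, with 71 without siComb 2, 79 without siComb 3 and 42 without siP300 3. A p that misses the threshold does not show that siComb and siP300 embryos were alike. The siP300 group held 406 ± 78.4 CPM (SD) of Rpl12, 107 ± 25.5 of Id2, 437 ± 70.2 of Mdm2 and 48 ± 25 of Mt3, against 329 ± 47.2, 79.6 ± 27.7, 471 ± 64.7 and 46.8 ± 10.1 in siComb. The siKat6a group held 944 ± 48.9, 425 ± 113, 100.3 ± 11.6 and 0.0652 ± 0.113 CPM of the same genes. Mitochondrially encoded genes took 5.83 ± 1.05% (SD) of counts in siP300 and 2.15 ± 0.241% in siKat6a, against 5.14 ± 0.275% in siComb.

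Single genes differed from siP300. Phlda2 measured 294, 337 and 282 CPM in siComb and 49.2, 120.3 and 73.9 CPM in siP300, a log2 fold change of 1.91 ± 0.27 (adjusted p = 0.00582). Ctsa measured 619, 456 and 518 CPM in siComb and 195, 199 and 179.9 CPM in siP300, a change of 1.47 ± 0.16 (adjusted p = 0.000968), and the siP300 libraries lay below siControl. The lysosomal peptidase Dpp7 was higher by 1.85 ± 0.23 (adjusted p = 0.00266). These 3 genes kept their call when any 1 library was left out, with adjusted p up to 0.0239, and lost it in the fit of the 2 groups alone (adjusted p from 0.187 to 0.214). In all, 9 of 45 lysosome and autophagy genes were higher than in siP300 and none lower (median log2 fold change 0.40, against -0.03 over all genes and 0.511% of all genes higher). That number was between 2 and 8 when a library was left out (3, 3 and 5 without siComb 1, 2 and 3, and 2 without siP300 3) and was 0 in the fit of the 2 groups alone and 14 by DESeq2. Of glycolysis and pyruvate genes 4 of 33 were higher, among them Tpi1 by 1.297 ± 0.21 (adjusted p = 0.0121), and 1 or 2 without a siComb library or without siP300 3. Impact, Cldn6, Trf and Crct1 were higher by 1.17 ± 0.19, 1.23 ± 0.21, 1.91 ± 0.42 and 7.83 ± 1.10. Impact lost its call without siComb 1 (adjusted p = 0.0541), Cldn6 without siP300 3 (adjusted p = 0.0516), and Trf and Crct1 in 5 and 2 of the 6 fits that left out 1 library. Crct1 also missed the threshold by DESeq2 (adjusted p = 0.344) and by limma-voom (adjusted p = 0.216). Its log2 fold change ran from 6.62 to 10.2 over the alternatives, so its size is uncertain.

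Laptm5, a lysosomal membrane protein of blood cells, and Hydin were lower in siComb than in siP300, with log2 fold changes of -2.05 ± 0.30 and -1.54 ± 0.22 (adjusted p = 0.0061 and 0.00582), both also called when any 1 library was left out. Tdgf1 (Cripto, the Nodal coreceptor) measured 4.83, 6.75 and 7.495 CPM in siComb, 58.7, 27.5 and 7.5 in siP300 and 25.2, 25.5 and 34 in siControl, a change of -2.29 ± 0.48 against siP300 (adjusted p = 0.0402). Library siP300 3 came close to siComb, and the call was lost when 4 of 6 libraries were left out one at a time (adjusted p up to 0.143). Mymx, a fusion peptide of muscle, was lower, with a log2 fold change of -2.25 ± 0.40 (adjusted p = 0.0209), a call lost without siComb 1 or siComb 3. The glutathione transferases Gsta1 and Gsta2, near-identical copies whose reads can be shared, measured 3.22, 6.75 and 0.961 and 1.25, 5.36 and 2.79 CPM in siComb and 29.3, 11 and 36.1 and 23.4, 16.5 and 9.04 CPM in siP300. Their calls against siP300 were lost in 4 and 3 of the 6 fits that left out 1 library. Neither passed against siControl (adjusted p = 0.748 and 0.485).

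**Figure D5:**
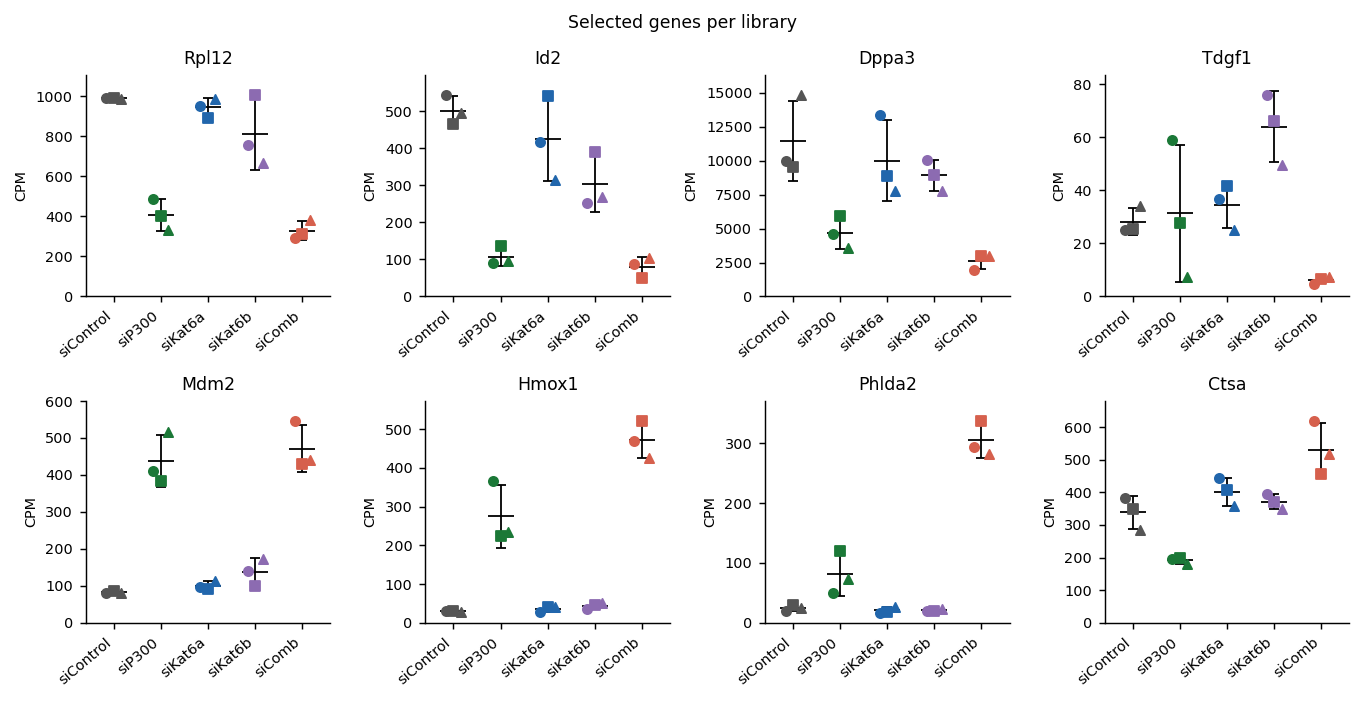
CPM of 8 genes in each library of the 5 siRNA groups, with the mean and SD in black; circles, squares and triangles are replicates 1, 2 and 3. Rpl12, Id2 and Dppa3 are low and Mdm2 and Hmox1 high in both siComb and siP300, while Phlda2 and Ctsa are higher in each siComb than in each siP300 library and Tdgf1 meets in siComb 3 and siP300 3.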

How the data were processed

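Polyadenylated RNA of pooled mouse morulae was turned into libraries with a kit for very small inputs, per the labels' protocols. The authors deposited raw counts per gene, and the submitters' processing notes name STAR 2.7.11a, featureCounts, Subread 2.0.6, MultiQC and Scanpy 1.8.2 and 2 builds, mm10 and GRCh38, but assign no roles. Annotation release, strand setting and pair handling: not given in the sources used here. About 85% of nonzero counts were even (83.8 to 85.6% per library), so counts may not be single, independent reads. Intervals and the floor of 3 counts over a group cover counting error only. The intervals treat counts as independent and are too narrow if these are not. The 2 MERVL rows stand in the table of the whole series, which was used throughout; their counting was likewise not stated. Of its 55369 rows, 53292 had a symbol in GENCODE vM21, from which positions on GRCm38 were taken.

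Groups came from the sample titles. The 15 libraries of the 5 siRNA groups held 9086237 to 11991314 counts, and no replicate pair differed by as little as sampling noise (chi-square per degree of freedom of at least 8.35). They entered 1 fit with edgeR 4.0.16 under R 4.3.3 (TMM scaling, quasi-likelihood test), without a replicate block, after filterByExpr with a minimum count of 10. Standard errors are the log2 fold change divided by the root of the F statistic. CPM values are edgeR's, on TMM-scaled totals, and list sums add them. For library measures, exact permutation tests (two-sided) were run. Sequences were read from RefSeq promoters of GRCm38.p6, 250 bases before to 10 after the start. Further work used SciPy 1.17.1, pandas 2.3.3, matplotlib 3.10.9, numpy 2.4.6 and Python 3.11.15.

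The comparison, its 43 gene lists, the tests and the rule for naming genes were chosen with earlier results of these data known, and counts per list are descriptions. The rule named the 4 acetyltransferase genes and the MERVL rows. It named the 15 rising and 15 falling genes with the largest change and the 5 of each with the smallest p, among genes called with at least 10 CPM in the higher group and libraries that did not overlap. Unnamed gene models were left out. A few genes that the rule names are not reported here. It named the first 5 of each against the single injections, and up to 5 members of each list by adjusted p. Promoter examples were chosen by the motif and p, and Cdx2, Gata3, Pou5f1, Xist and the X-linked class after values were seen. Alternatives were other scalings, DESeq2 1.42.0, limma-voom 3.58.1, other filters, a replicate block, other sets of libraries, halved counts and leaving out each library. The test was tested on simulated counts.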

Additional observations from a re-analysis of the deposited data

How the results depend on the processing

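The count of genes called in siComb against siControl stayed within 1.5 times the reported 7036 under every alternative run, from 4951 with a 2-fold threshold and 5221 to 6832 with 1 library left out to 7637 with DESeq2. The higher count ran from 2739 to 3670 and the lower from 2383 to 3162 with 1 library left out. The lower count moved to 2002 with a 2-fold threshold and to 2083 with scaling by library size alone. Against siP300 the 151 calls became 99 with scaling by library size alone, 618 with DESeq2, 35 with limma-voom, 732 with no filter, 48 with the replicate block, 0 in the fit of the 2 groups and 26 to 165 with 1 library left out. In that fit of 2 groups, which has fewer samples, 1568 genes had an unadjusted p under 0.05. Leaving out 1 library gave 5183 to 6654 calls against siKat6a and 4301 to 5734 against siKat6b. MERVL-int missed the threshold with limma-voom (2.29, adjusted p = 0.0853), with the replicate block (2.92, adjusted p = 0.0538) and in 3 of 6 fits without 1 library (log2 fold change 1.09 to 4.12). The excess of genes with at least 10 counts in siComb, 1683 after thinning, was 676 at a minimum of 1 count, 1152 at 50 counts and 1454 to 1855 with 1 library left out, while that of the mitochondrial share ran from 2.71 to 3.02 percentage points. Same-numbered siComb and siControl libraries did not deviate together (correlations of their deviations from the group means of -0.0098, 0.027 and 0.0023), so the numbers were not taken as pairs, and a replicate block gave 6474 calls. Between siComb and siP300 the same-numbered correlations were 0.074, 0.36 and 0.087, and differently numbered ones ran from -0.24 to 0.19. There the replicate block lowered the calls from 151 to 48, and whether those numbers mark pairs was not tested. The log2 fold change changed sign for 5 named genes. Ep300 stood at 0.12 with scaling by library size alone and ran from -0.39 to 0.088 with 1 library left out. Gsta1 stood at 0.0090 with that scaling and ran from -1.04 to 0.19. Gsta2 ran from -0.20 to 0.81, and Zscan4c from -1.12 (without siComb 2) to 6.70. Xkr9 stood at -0.028 with the replicate block and ran from -0.25 to 0.25. The cause was not tested. With 3 libraries a group, library measures cannot pass an exact test, and genes under about 1 CPM rest on few counts.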

Other observations

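Shares of genes called differed between kinds of transcript in siComb against siControl. Of 991 lincRNA genes tested, 10.9% rose and 18.6% fell, with a median log2 fold change of -0.05, while of 642 processed pseudogenes 5.14% rose and 23.4% fell, with a median of -0.79. Antisense genes, 1259 in number, had 15.7% rising and 13.2% falling, and unprocessed pseudogenes, 132 in number, 17.4% and 10.6% with a median of 0.78. Protein-coding genes, 14731 in number, had 21.9% rising and 17.3% falling. The strand setting is not given in the sources used here, so reads of antisense genes may include those of their partners, and pseudogenes can share reads with genes of near-identical sequence.

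Among single autosomes, the share of genes that rose ran from 15.7% of 706 on chromosome 15 to 24.8% of 408 on chromosome 18. Chromosome 12, with 745 genes tested, had 22.4% rising and 13.8% falling and a median of 0.22.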
